A study of Mus musculus with 27 samples.

Results

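Chemokines are small secreted proteins that direct cell migration, and chemokine receptors are the membrane proteins that bind them. The genes described here are those of the 24825 genes in the deposited tables whose symbols follow the systematic names of both families, which are Ccl, Cxcl, Cx3cl or Xcl and a number for ligands and Ccr, Cxcr, Cx3cr, Xcr or Ackr and a number for receptors. This rule found 61 genes, 38 for ligands and 23 for receptors. It reads names and no measured value. RNA-seq of polyadenylated RNA was performed in C2C12 cells, an established mouse myoblast line that fuses into muscle fibers, which carried a control retrovirus or one that expressed NFIA in full length or as the Δpro#3 mutant. NFIA is a DNA-binding transcription factor, and Δpro#3 lacks the C-terminal end of its proline rich domain. Cells of each construct were sampled before differentiation (day 0), at day 7, and at day 7 following 4 h with 10 µM forskolin, an activator of adenylyl cyclase, with 3 replicates in each of the 9 groups. From confluence on, all cells taken to day 7, control cells included, received treatment for adipocyte differentiation, so that no day 7 group was untreated. Sample labels name IBMX, indomethacin, dexamethasone, insulin, T3 and rosiglitazone for it. In the paper this recipe is spelled out for stromal vascular cells, with IBMX, indomethacin and dexamethasone in the first part only. For C2C12 cells it points to earlier work, so whether these compounds were still present at day 7 is not known. The constructs were driven by a viral promoter in cells of 1 line, and the labels do not say whether replicates were separate cultures, so that p-values measure the spread between these samples.

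Chemokines are grouped by the spacing of their first cysteines into CC, CXC, CX3C and XC ligands. Most act on seven-transmembrane receptors that couple to inhibitory G proteins, whereas the atypical receptors, named Ackr, bind chemokines without that coupling and take them up. Muscle precursors and preadipocytes secrete several chemokines, and the receptors are best known from leukocytes, with Cxcr4 and Ackr3 as exceptions that are also found on many other cells. Many of the ligand genes lie in tandem clusters. The runs given here list only genes that follow the naming rule, and other genes of a cluster are left out. In the deposited tables' assembly, mm9 (NCBIM37), a run on chromosome 11 from 81849073 to 82119192 holds Ccl2, Ccl7, Ccl11, Ccl12, Ccl8 and Ccl1, and another on the same chromosome, from 83339280 to 83478185, holds Ccl5, Ccl9, Ccl6, Ccl3 and Ccl4. On chromosome 5, a run from 91188325 to 91334935 holds Cxcl5, Cxcl3, Cxcl15, Cxcl1 and Cxcl2.

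The depth was 9567769 to 27230965 fragments per sample, with a median of 17707223. At day 0, Nfia was at 225 to 250 FPKM (fragments per kilobase of transcript, scaled to depth) in full-length NFIA-expressing and at 397 to 423 FPKM in Δpro#3 mutant-expressing samples, against 0.175, 0.879 and 7.35 FPKM in the control samples. Both constructs thus differed in RNA level as well as in the deleted domain. Comparisons between them cannot separate level from domain, and the part of either in a difference was not tested. Muscle markers summed to 1547 to 1632 FPKM in control cells at day 0, 154 to 162 FPKM with full-length NFIA and 485 to 498 FPKM with the mutant, and at day 7 to 10047 to 11623, 1815 to 2438 and 11479 to 11962 FPKM. Adipocyte markers at day 7 summed to 360 to 398, 13485 to 15002 and 631 to 2041 FPKM in the same order. In bulk samples, fewer cells of a type and less RNA per cell cannot be told apart. Of 19 leukocyte markers, only Cd14, Cd68 and Lyz2 reached a mean of 1 FPKM in any group, the sum was 8.48 to 32.7 FPKM, and Ptprc (CD45), which all leukocytes carry, was at most at 0.0272 FPKM in any sample. By group, the leukocyte sum at day 0 was 8.48 to 8.72 FPKM in control cells, 20.6 to 22.4 FPKM with full-length NFIA and 19 to 19.8 FPKM with the mutant. At day 7 it was highest in control cells (19.6 to 20.1, 14.7 to 16.9 and 13.8 to 17.3 FPKM). At day 0, Lyz2 was called higher than in control cells with both constructs, as 1 of 3 markers tested (2.46% and 0.859% of all genes). The 6 endothelial markers summed to at most 1.44 FPKM. Replicate 1 of the Δpro#3 mutant at day 7, with and without forskolin, stood apart from replicates 2 and 3, for example in Fabp4 (1415 against 294 and 354 FPKM without forskolin), and calls that were lost without it are given with their value without it. Replicate 1 of full-length NFIA after forskolin also differed more from replicates 2 and 3 (chi-square per gene 13.5 and 15.0) than these from each other (3.40). Without it no call of a construct comparison or a forskolin response was lost, and the difference in forskolin response of Ccl7 between full-length NFIA and control cells missed the threshold (0.56, adjusted p = 0.0946, limma).

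Of the 61 genes, 20 were expressed, taken as a mean of 1 FPKM or more in at least 1 of the 9 groups, and 16 of them reached 5 FPKM. These were 17 of 38 ligands and only 3 of 23 receptors, namely Cxcr4 and the atypical receptors Ackr3 and Ackr4. Another 31 genes were detected but stayed below 1 FPKM in every group, and 10 had 0 fragments in all 27 samples (among them Ccl1, Ccl12, Ccl20, Ccl26 and Ccr3). Fragments of near-identical copies (Ccl21a, Ccl21b and Ccl21c, or Ccl27a and Ccl27b) could not be assigned with certainty, since only uniquely mapped reads were counted. The number expressed per group was 13 to 15 at day 0 and 14 to 18 at day 7, with or without forskolin, and 9 genes were expressed in all 9 groups (7 ligands and 2 receptors).

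The receptors for most of the expressed ligands were near 0. Ccr2, the receptor for the protein of Ccl2, had 1 fragment over the 27 samples, Ccr1 had 8 and Ccr3, the eotaxin receptor, had none. Cxcr1 and Cxcr2, which bind the ligands of Cxcl1 and Cxcl5, had 1 and 3 fragments, and Cxcr5, the receptor for Cxcl13, had 3. The fractalkine receptor Cx3cr1 had 172 fragments and at most a group mean of 0.228 FPKM, and Cxcr6, the receptor for Cxcl16, had 36 fragments. Ligand and receptor were thus both expressed only for Cxcl12 with Cxcr4 and Ackr3, and for Ccl25 with the scavenging receptor Ackr4, among the pairs named here.

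**Figure D1:**
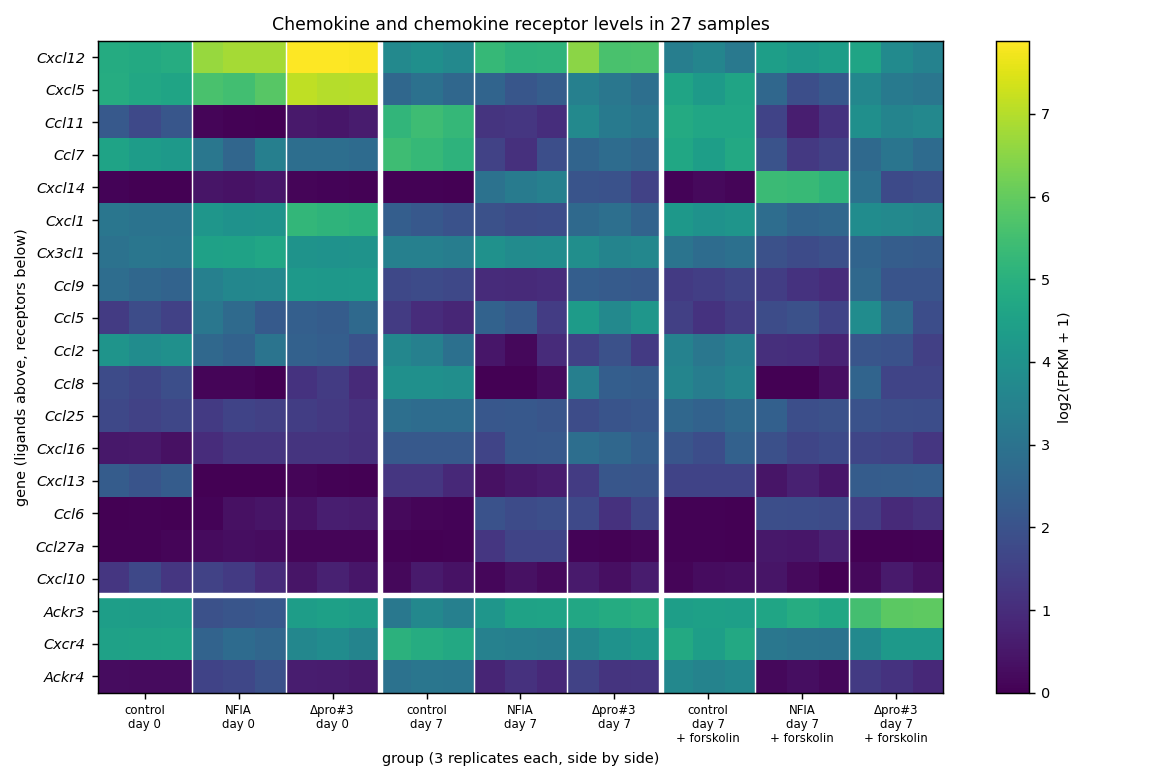
Levels of the 20 expressed genes (rows, ligands above the white line and receptors below) in the 27 samples (columns, 3 replicates side by side per group), colored by log2(FPKM + 1). Cxcl12 is brightest at day 0 with the Δpro#3 mutant, where its 3 samples sit at 230.1 to 235 FPKM, and Ccl7, Ccl11 and Ccl8 are brightest in control cells at day 7.

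The summed level of all ligands at day 0 was 123 ± 6.85 FPKM (SD, n = 3) in control cells, 233 ± 12.6 FPKM with full-length NFIA and 454 ± 9.94 FPKM with the Δpro#3 mutant. At day 7 the sums were 147 ± 10.8, 84.5 ± 3.02 and 147 ± 35.6 FPKM, and after forskolin 138 ± 10.9, 87.1 ± 8.07 and 91.1 ± 23.6 FPKM. The mutant means rest on replicate 1, which was at 188.5 FPKM at day 7 against 127.4 and 126.3 FPKM in replicates 2 and 3, and at 117.8 FPKM after forskolin against 82.4 and 73.2 FPKM. Cxcl12 made up 22.5% of ligand FPKM in control cells, 46.7% with full-length NFIA and 51.4% with the mutant at day 0, and 8.69%, 41.6% and 41.6% at day 7, where the mutant samples were at 47.7% in replicate 1 and at 38.0% and 39.0% in the others. The chromosome 11 run of Ccl2, Ccl7, Ccl11 and Ccl8 made up 32.4%, 5.66% and 2.56% at day 0 and 67.8%, 4.41% and 15.3% at day 7.

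The effect of each construct was tested with limma on log2(FPKM + 1) over all genes with a mean of 0.5 FPKM or more. Calls required both a Benjamini-Hochberg adjusted p-value under 0.05 and a ratio of FPKM + 1 above 3 in either direction. At day 0, 17 of the 61 genes passed the filter. For full-length NFIA against control cells, 1 of them was called higher and 5 lower, beside 2.46% and 2.78% of all genes tested. For the Δpro#3 mutant against control cells 3 were higher and 2 lower (0.859% and 1.32% of all genes), and for the mutant against full-length NFIA 1 was higher and none lower (0.925% and 1.12%). In that last comparison 12 of the 17 genes had an unadjusted p-value of limma under 0.05, and 4 were lower at an adjusted p-value under 0.05 alone, as were 31.9% of all genes, while voom called 3 higher and 2 lower. Counts at unadjusted p-values or by voom, here and below, have no share over all genes beside them. They are a description and cannot show that these genes differ from others.

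At day 7, 19 genes passed the filter. Against control cells, full-length NFIA had 2 called higher and 5 lower (4.87% and 3.30% of all genes), and the mutant 3 higher and 4 lower (0.933% and 0.503%). Against full-length NFIA, the mutant had 3 higher and none lower (2.60% and 3.70%), with 17 at an unadjusted p-value of limma under 0.05, 3 lower at an adjusted p-value under 0.05 alone (29.4% of all genes), and 7 called higher and 2 lower by voom. After forskolin, 18 genes passed, with 2 higher and 7 lower for full-length NFIA against control cells (4.25% and 3.77%), 1 higher and 2 lower for the mutant against control cells (0.866% and 0.685%; 5 in all without mutant replicate 1 or control replicate 2, and 7 with voom or a pseudocount of 0.1), and 3 higher and 1 lower for the mutant against full-length NFIA (2.89% and 3.31%). A gene that passes the filter only through the group in which it is high had to differ, so the counts over the tested genes are a description. The samples of both groups did not overlap in any of the 71 calls between constructs, time points or treatments. The thresholds of a call make this likely in advance, so it adds no support. Many comparisons of these genes that were not called did not overlap either, and the share over all genes was not computed.

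**Figure D2:**
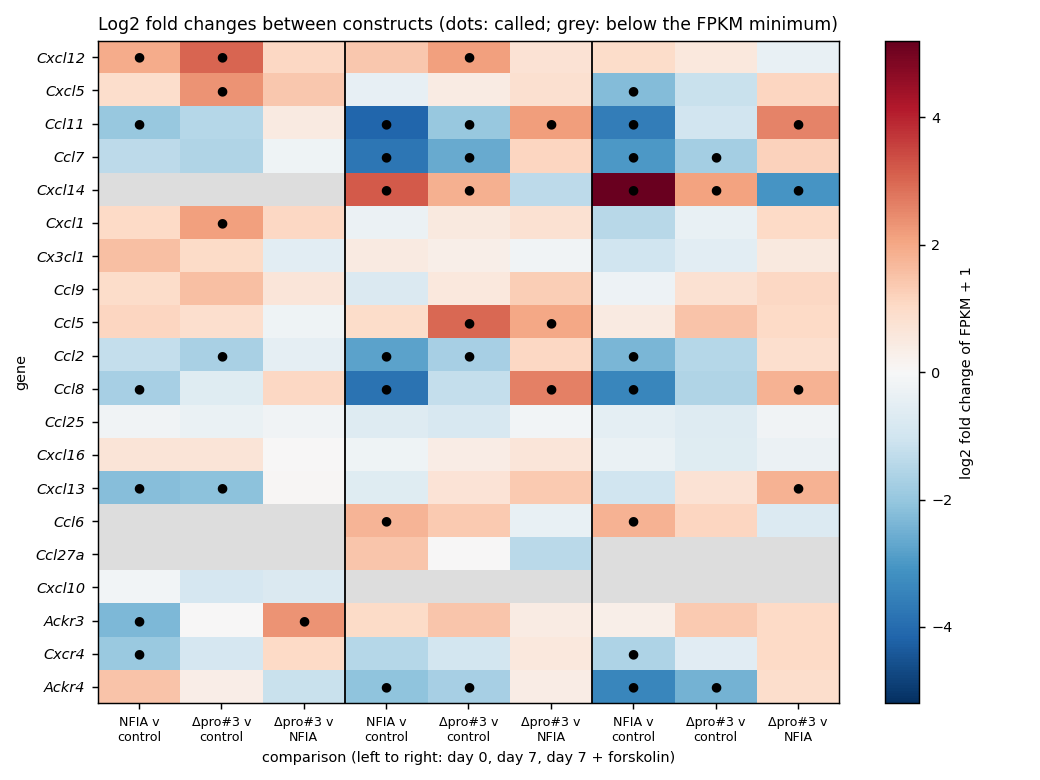
Log2 fold changes of FPKM + 1 between constructs for the 20 expressed genes (rows) in 9 comparisons (columns), with red for higher and blue for lower in the first group named. Dots mark calls and grey marks genes below the FPKM minimum, and Ccl11, Ccl7 and Ccl2 are blue in every comparison with control cells.

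Cxcl12 (mm9 chromosome 6, 117118553 to 117131385), a ligand of stromal cells that retains progenitor and immune cells, had the highest group mean of the 61 genes (233 FPKM, with the mutant at day 0). At day 0 it was at 28.0, 26.8 and 28.2 FPKM in the control samples, 100.4, 112.6 and 112.9 FPKM with full-length NFIA and 234, 235 and 230.1 FPKM with the Δpro#3 mutant. The 3 groups did not overlap, and the order was control, full-length NFIA, mutant, which was also the order of Nfia RNA at day 0. The change against control cells was 1.93 ± 0.044 on the log2 scale (SE; adjusted p = 2.85e-11, limma) with full-length NFIA and 3.03 ± 0.044 (adjusted p = 6.83e-12) with the mutant. The mutant was 1.10 above full-length NFIA (adjusted p = 5.35e-09), which is under the 3-fold threshold.

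At day 7 Cxcl12 was lower in all cells and kept that order of means. It was at 12.1, 14.2 and 12.04 FPKM in control cells, 37.9, 33.5 and 34.1 FPKM with full-length NFIA and 90.0, 48.4 and 49.3 FPKM with the mutant. The rise over control cells was called with the mutant (2.15 ± 0.197, adjusted p = 2.11e-05, limma), also without replicate 1, which had the highest value (1.86, adjusted p = 5.55e-07), and with full-length NFIA it was 1.39 and not called. After forskolin, the levels were 9.40, 10.99 and 8.12 FPKM in control cells, 20.5, 18.04 and 20.1 FPKM with full-length NFIA and 23.1, 12.6 and 10.3 FPKM with the mutant. The mutant samples thus spanned from just below the highest control sample to above full-length NFIA, and the difference from full-length NFIA was -0.41 (adjusted p = 0.130). The fall with forskolin was called only in mutant cells (-1.98 ± 0.233, adjusted p = 6.76e-06) and differed from that of control cells by -1.58 (adjusted p = 0.00963).

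Cxcr4 (chromosome 1, 130484776 to 130488870), the signaling receptor for the Cxcl12 protein, was highest in control cells at every time point. At day 0 it was at 21.8, 22.4 and 22.6 FPKM in control cells, 4.65, 5.75 and 5.11 FPKM with full-length NFIA and 11.6, 13.1 and 10.7 FPKM with the mutant, with no overlap. The decrease was -1.92 ± 0.075 with full-length NFIA (adjusted p = 1.71e-09, limma) and -0.87 with the mutant (adjusted p = 2.41e-06, under 3-fold). At day 7 the means were 28.9, 9.67 and 14.6 FPKM, and after forskolin 24.4, 7.31 and 16.1 FPKM, in the order control, full-length NFIA and mutant. The call after forskolin with full-length NFIA (-1.60, adjusted p = 1.55e-06) lay close to the 3-fold threshold, and it was lost with median-ratio scaling (-1.43) and without control replicate 1 (-1.53) or 3 (-1.55) or full-length NFIA replicate 3 (-1.57).

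Ackr3 (formerly Cxcr7, chromosome 1, 92100555 to 92113326), which takes up the Cxcl12 protein without G protein signaling, differed between the constructs at day 0. It was at 20.4, 19.7 and 20.4 FPKM in control cells and 19.8, 21.2 and 19.7 FPKM with the mutant, but at 2.91, 3.20 and 3.54 FPKM with full-length NFIA. The control and mutant samples overlapped, and both lay above all samples with full-length NFIA. The decrease with full-length NFIA was -2.33 ± 0.053 (adjusted p = 2.85e-11, limma), 6.28-fold in FPKM. The difference between mutant and control cells was 0.00, with a 95% interval of -0.114 to 0.122. Of the 17 tested genes, Ackr3 was the 1 called between mutant and full-length NFIA at day 0 (2.34 ± 0.053, adjusted p = 1.13e-10, limma), where 4 genes were called with a pseudocount of 0.1 and 5 with voom.

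At day 7 the order was another. Ackr3 was at 7.95, 11.9 and 9.75 FPKM in control cells, 16.6, 22.2 and 22.9 FPKM with full-length NFIA and 25.7, 28.1 and 29.8 FPKM with the mutant. It had risen 6.39-fold from day 0 with full-length NFIA (2.34, adjusted p = 7.28e-12, limma) and was lower than at day 0 in control cells (-0.98, under 3-fold). This change with time differed from control cells by 3.32 with full-length NFIA (adjusted p = 2.35e-11) and by 1.42 with the mutant (adjusted p = 3.16e-06). After forskolin it was at 20.4, 21.2 and 21.1 FPKM in control cells, 24.0, 28.6 and 25.0 FPKM with full-length NFIA and 45.4, 59.1 and 60.3 FPKM with the mutant, the highest receptor level of the data set. The forskolin response was 1.03 in control and 0.94 in mutant cells, both under 3-fold, and 0.33 with full-length NFIA, where it differed from that in control cells by -0.70 (adjusted p = 0.0108).

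**Figure D3:**
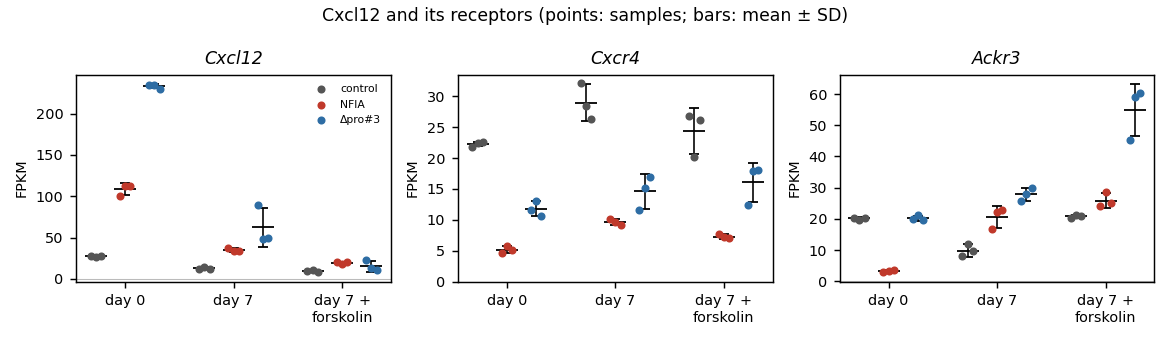
FPKM of Cxcl12, Cxcr4 and Ackr3 in each sample (points) with group mean ± SD (bars), by time point and construct. Cxcl12 is highest with the Δpro#3 mutant at day 0 (230.1 to 235 FPKM), Cxcr4 is highest in control cells throughout, and Ackr3 is lowest with full-length NFIA at day 0 (2.91 to 3.54 FPKM).

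The chromosome 5 run holds ligands that attract neutrophils through Cxcr1 and Cxcr2. Of its 5 genes that follow the naming rule, only Cxcl1 and Cxcl5 were expressed. Cxcl2 had 2 fragments in all 27 samples and Cxcl3 had 14, and Cxcl15 reached at most a group mean of 0.67 FPKM. The promoters of Cxcl1 and its close neighbors Cxcl2 and Cxcl3 are shown because these genes are alike in sequence and far apart in level here. The sequences are the 150 bases before the start of each gene, from RefSeq (GRCm38.p6, chromosome 5, plus strand, at chr5:90891095-90891244 for Cxcl1, chr5:90903749-90903898 for Cxcl2 and chr5:90785951-90786100 for Cxcl3). Capitals mark matches, on either strand, to the NF-kB motif, searched as GGG, any 2 bases and TTTCC.
Cxcl1: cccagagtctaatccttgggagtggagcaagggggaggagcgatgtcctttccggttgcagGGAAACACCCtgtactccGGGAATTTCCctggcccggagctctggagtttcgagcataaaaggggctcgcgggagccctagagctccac
Cxcl2: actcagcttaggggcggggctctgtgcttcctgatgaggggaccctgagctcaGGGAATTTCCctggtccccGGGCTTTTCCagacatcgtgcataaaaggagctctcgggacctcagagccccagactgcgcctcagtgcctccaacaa
Cxcl3: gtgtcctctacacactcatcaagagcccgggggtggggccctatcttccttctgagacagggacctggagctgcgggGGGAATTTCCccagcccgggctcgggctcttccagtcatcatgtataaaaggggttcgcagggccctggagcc
All 3 hold the motif, and so did 6 of the 45 genes with a promoter entry (Ccl20, Ccl9, Ccr3 and these 3). Over windows of 250 bases before to 50 bases after a start, 11.5% of the 52 windows of these genes and 1.63% of 32851 windows of all genes held it. The full NFI site, searched as TTGGC, any 5 bases and GCCAA, was in none of the 52 windows (0.0365% of all), its core TTGGC alone in 42.3% (46.7% of all), the AP-1 motif TGANTCA in 17.3% (7.81% of all) and the cAMP response motif TGACGTCA in none (1.79% of all). A match is no evidence of binding, and Cxcl1, Cxcl2 and Cxcl3 hold the same motif at very different levels. No such entry was found for Cxcl5, Ccl2, Ccl7, Ccl11, Ccl5 or Cxcl16.

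Cxcl1 and Cxcl5 followed the same order at day 0 as Cxcl12. Cxcl1 was at 7.46, 7.004 and 6.99 FPKM in control cells, 16.6, 15.3 and 15.7 FPKM with full-length NFIA and 36.4, 33.9 and 32.6 FPKM with the mutant. Cxcl5 was at 28.5, 25.4 and 23.3 FPKM in control cells, 48.1, 44.1 and 56.1 FPKM with full-length NFIA and 138, 128 and 129 FPKM with the mutant. None of these groups overlapped. The rise over control cells was called with the mutant (2.11 ± 0.047 for Cxcl1 and 2.32 ± 0.087 for Cxcl5, adjusted p = 8.36e-11 and 3.19e-09, limma), and with full-length NFIA it was 1.05 and 0.91, under 3-fold. From day 0 to day 7, Cxcl5 fell in all cells, 12.3-fold with full-length NFIA, 16.6-fold with the mutant and 4.53-fold in control cells. Cxcl1 fell with both NFIA constructs (5.89-fold and 6.2-fold), while in control cells it was -0.85 and not called.

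Forskolin raised both genes in control cells. Cxcl1 went from 4.15, 3.51 and 2.97 FPKM to 17.6, 15.4 and 16.2 FPKM (1.94 ± 0.105, adjusted p = 1.46e-09, limma), and Cxcl5 from 5.15, 6.75 and 5.15 FPKM to 23.5, 18.9 and 23.2 FPKM (1.78 ± 0.189, adjusted p = 3.76e-06). They were the only 2 of 18 genes called in that response (0.245% higher and 0.147% lower of all genes). None was called lower by limma or voom, with 8 at an unadjusted p-value of limma under 0.05 and 3 lower at an adjusted p-value under 0.05 alone (13.5% of all genes). With full-length NFIA, Cxcl1 went from 2.86, 2.56 and 2.67 to 6.10, 4.82 and 5.26 FPKM, a change of 0.79. Cxcl5 was at 4.80, 3.28 and 3.96 FPKM before and 5.23, 2.73 and 3.49 FPKM after, so that the groups overlapped, and the change was -0.08 with a 95% interval of -0.480 to 0.319.

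With the Δpro#3 mutant, the responses also stayed under the threshold. Cxcl1 went from 5.50, 6.39 and 4.70 to 13.1, 12.2 and 11.4 FPKM, with no overlap and a change of 1.02 (adjusted p = 1.38e-06, limma). Cxcl5 was at 9.72, 7.79 and 6.38 before and 11.6, 8.57 and 7.51 FPKM after (0.19, adjusted p = 0.465). The response of Cxcl1 was smaller than in control cells by 1.16 with full-length NFIA (adjusted p = 2.44e-05) and 0.92 with the mutant (adjusted p = 0.00156), and that of Cxcl5 by 1.86 and 1.59 (adjusted p = 7.43e-05 and 0.00212). In all, 2 of 18 genes had a more positive and 5 a more negative response with full-length NFIA than in control cells (9.16% and 21.5% of all genes), and 1 and 6 with the mutant (2.47% and 2.50%).

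**Figure D4:**
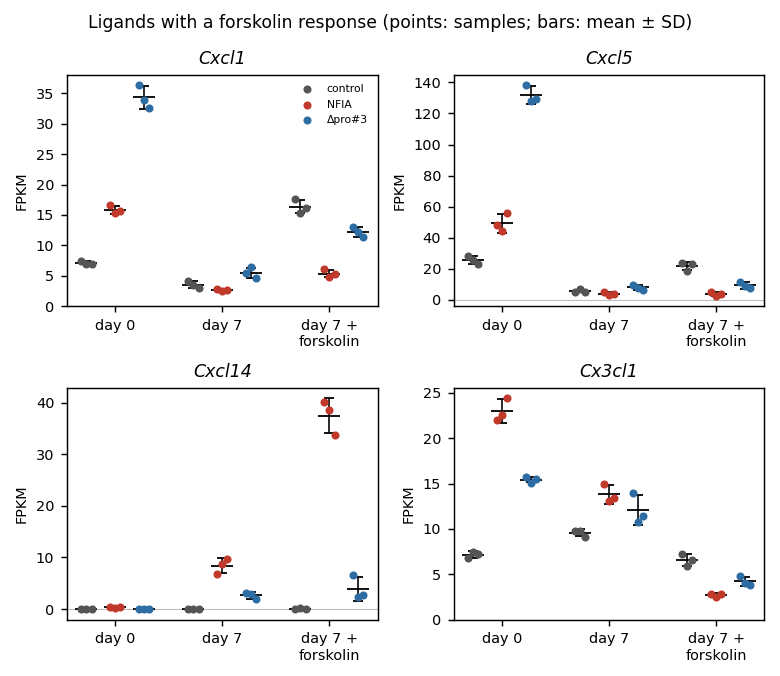
FPKM of Cxcl1, Cxcl5, Cxcl14 and Cx3cl1 in each sample (points) with group mean ± SD (bars), by time point and construct. In control cells forskolin lifts Cxcl1 from 2.97 to 4.15 FPKM to 15.4 to 17.6 FPKM, while with full-length NFIA Cxcl14 goes from 6.82 to 9.69 FPKM to 33.6 to 40.1 FPKM.

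The first chromosome 11 run codes for CC ligands of monocytes and eosinophils. Of its 6 genes, Ccl2 (monocyte chemoattractant protein 1), Ccl7, Ccl11 (eotaxin) and Ccl8 were expressed, and all were lower with both NFIA constructs than in control cells at each time point (adjusted p-values of limma under 0.05, with calls named where the change passed 3-fold). Ccl2 at day 0 was at 15.7, 13.2 and 14.6 FPKM in control cells, 5.28, 4.62 and 7.23 FPKM with full-length NFIA and 4.42, 4.14 and 2.97 FPKM with the mutant. Control cells did not overlap with the others. The decrease passed 3-fold with the mutant (-1.69 ± 0.145, adjusted p = 2.30e-06, limma), though without mutant replicate 3 it was -1.55 and no longer past 3-fold, and it was -1.23 with full-length NFIA. At day 7 Ccl2 was at 11.7, 9.80 and 6.56 FPKM in control cells, 0.389, 0.120 and 0.978 FPKM with full-length NFIA and 1.86, 2.88 and 1.54 FPKM with the mutant. The decrease with full-length NFIA was now 18.8-fold in FPKM (-2.80 ± 0.244, adjusted p = 2.62e-06), on 14 fragments with full-length NFIA, and 36.7-fold without its replicate 3, and that with the mutant 4.45-fold (-1.73, adjusted p = 0.000296; -1.57 without control replicate 1, under 3-fold).

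Ccl7 showed the same direction at a higher level. At day 7 it was at 42.3, 38.3 and 33.4 FPKM in control cells, 1.96, 1.15 and 2.74 FPKM with full-length NFIA and 4.87, 5.93 and 5.02 FPKM with the mutant, with no overlap between any of the groups. It was 19.5-fold lower with full-length NFIA (-3.75 ± 0.173, adjusted p = 2.28e-08, limma) and 7.21-fold lower with the mutant (-2.63 ± 0.173, adjusted p = 2.78e-06). After forskolin, where control samples were at 20.3 to 25.9 FPKM, full-length NFIA-expressing samples were at 1.502 to 3.07 FPKM and mutant samples at 5.50 to 7.29 FPKM, both called lower. At day 0, control samples were at 17.9 to 22.7 FPKM, and the decreases were -1.35 and -1.56, short of the threshold.

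Ccl11 and Ccl8 were the members of the run called higher in control cells with time, and the change of Ccl7 (0.89, adjusted p = 0.000342, limma) was under 3-fold. Ccl11 went from 3.58, 2.36 and 3.36 FPKM at day 0 to 35.8, 42.2 and 36.8 FPKM at day 7, 12.4-fold (3.27 ± 0.136, adjusted p = 1.19e-12, limma), and Ccl8 from 2.48, 2.16 and 2.70 to 14.4, 14.5 and 13.8 FPKM, 5.84-fold (2.15, adjusted p = 3.85e-08). With full-length NFIA, Ccl11 had 3 fragments over the 3 samples at day 0 and was at 1.27, 1.36 and 1.06 FPKM at day 7, and Ccl8 had 2 fragments at day 0 and 1 at day 7. The difference from control cells at day 7 was -4.14 ± 0.146 for Ccl11, 31.2-fold in FPKM (adjusted p = 3.43e-09), and -3.86 for Ccl8 (adjusted p = 2.12e-07), a fitted value that depends on the pseudocount because almost no fragment was counted with full-length NFIA.

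The Δpro#3 mutant cells lay between both for Ccl11 and Ccl8. Ccl11 was at 0.468, 0.379 and 0.503 FPKM at day 0 and 12.1, 8.41 and 7.32 FPKM at day 7, 20.6-fold higher (2.80, adjusted p = 8.69e-12, limma). At day 7 it was 4.12-fold below control cells (-1.96, adjusted p = 5.78e-06) and 7.56-fold above full-length NFIA (2.18 ± 0.146, adjusted p = 5.06e-07; 1.99 without mutant replicate 1). Ccl8 was at 1.25, 1.59 and 0.906 FPKM at day 0 and 9.52, 4.10 and 3.87 FPKM at day 7, with replicate 1 highest, and exceeded full-length NFIA by 2.60 (adjusted p = 6.08e-06; 2.24 without replicate 1). After forskolin mutant cells again exceeded full-length NFIA-expressing cells for both genes (2.58 for Ccl11 and 1.82 for Ccl8), but for Ccl8 the difference without replicate 1 was 1.52 (adjusted p = 1.79e-06), under 3-fold.

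**Figure D5:**
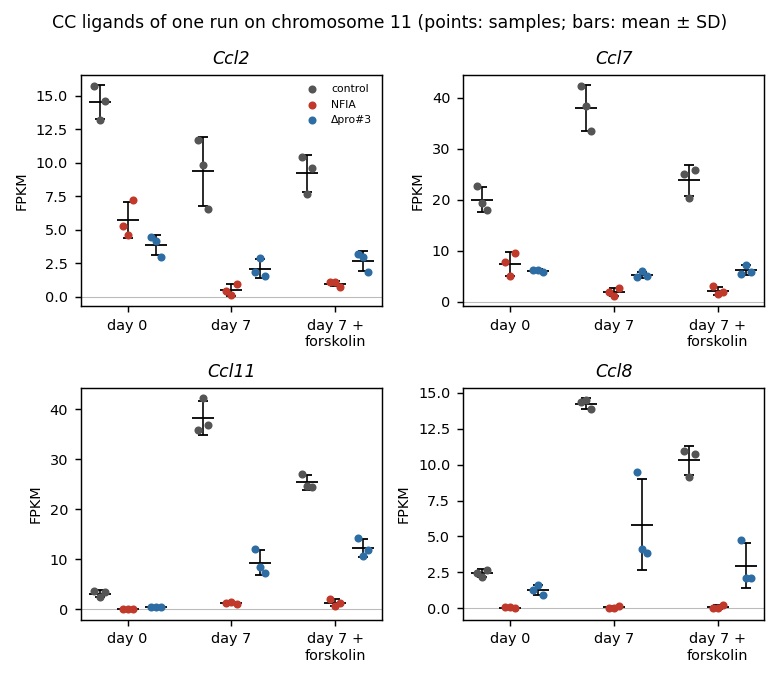
FPKM of Ccl2, Ccl7, Ccl11 and Ccl8 in each sample (points) with group mean ± SD (bars), by time point and construct. Control cells lie above the others at each time point, and with full-length NFIA Ccl8 stays at 0 to 0.257 FPKM in all samples.

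The second chromosome 11 run behaved otherwise. Ccl5 (RANTES), a ligand for T cells and monocytes that is also induced by interferon, was at 1.61, 1.01 and 0.803 FPKM in control cells at day 7, 4.53, 3.75 and 1.65 FPKM with full-length NFIA and 19.1, 12.02 and 16.7 FPKM with the mutant. The mutant samples lay above all others. They exceeded control cells by 2.98 ± 0.264 (adjusted p = 1.69e-05, limma), 14.0-fold in FPKM, and full-length NFIA by 2.02 (adjusted p = 7.71e-05), and without replicate 1 by 2.84 and 1.88. At day 0 the mutant samples were at 4.21, 3.91 and 5.52 FPKM and overlapped with the 7.79, 5.60 and 3.66 FPKM of full-length NFIA. The change from day 0 to day 7 was called with the mutant (1.60, adjusted p = 2.91e-05, limma), and it was -0.65 with full-length NFIA and -0.50 in control cells. The call lay close to the threshold, since the change was 1.46 to 1.56 without either of day 0 replicates 1 and 2 or day 7 replicates 1 and 3 of the mutant. After forskolin the mutant samples spread from 2.67 to 13.4 FPKM, and no call remained.

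Of 24 interferon-response genes tested at day 7, 7 were called higher in mutant than in full-length NFIA-expressing cells (Ifit1, Ifit2, Ifit3, Irf7, Isg15, Mx2 and Oasl2) and none lower, beside 2.60% of all genes higher and 3.70% lower, with a median difference of 0.892 against 0.035 over all genes. Against control cells 3 were called higher (0.933% of all genes), and after forskolin, where Ccl5 was not called, 5 of 23 against full-length NFIA (2.89%) and 2 of 23 against control cells (0.866%). Irf7, a transcription factor of that response, was at 16.2, 8.97 and 7.02 FPKM with the mutant and at 1.27 to 1.66 FPKM in the other day 7 samples, highest in the same replicate 1. The part of this response in the level of Ccl5 was not tested. Of the ligands best known for their induction by interferon, Cxcl10 had group means of 1.69, 1.48 and 0.475 FPKM at day 0 in control, full-length NFIA and mutant cells and 0.305, 0.173 and 0.415 FPKM at day 7. Cxcl9 and Cxcl11 had 78 and 2 fragments in all samples.

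Ccl6 and Ccl9, macrophage ligands of the same run, went in opposite directions with time in cells with full-length NFIA. Ccl6 was nearly absent from control cells and reached 2.98, 2.47 and 2.74 FPKM with full-length NFIA and 2.34, 1.17 and 2.16 FPKM with the mutant at day 7, where control samples were at 0.0594 to 0.137 FPKM. The rise over control cells was called with full-length NFIA at day 7 (1.77 ± 0.147, adjusted p = 1.80e-06, limma) and after forskolin (1.82, adjusted p = 9.08e-08), and with the mutant it was 1.38 and 1.11. Ccl9 was at 5.98, 5.25 and 4.71 FPKM in control cells at day 0, 9.90, 11.6 and 11.9 FPKM with full-length NFIA and 18.1, 17.4 and 17.8 FPKM with the mutant. It then fell 11.4-fold with full-length NFIA, to 0.973, 0.936 and 1.02 FPKM (-2.62 ± 0.074, adjusted p = 5.06e-15), and 4.63-fold with the mutant, to 3.59 to 4.14 FPKM.

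Cxcl14 (chromosome 13, 56390008 to 56397912), a ligand of epithelia that is also secreted by brown adipocytes, had the largest fitted rise of any ligand between constructs. Control cells had 3 fragments over the 3 samples at day 0, 2 at day 7 and 9 after forskolin. With full-length NFIA it was at 0.363, 0.304 and 0.387 FPKM at day 0, 6.82, 8.80 and 9.69 FPKM at day 7 and 40.1, 38.6 and 33.6 FPKM after forskolin, where it made up 43% of all ligand FPKM. With the mutant, it was at 3.15, 2.92 and 1.95 FPKM at day 7 and 6.63, 2.44 and 2.72 FPKM after forskolin, so that no sample overlapped with full-length NFIA. The forskolin response with full-length NFIA was 4.44-fold (2.03 ± 0.217, adjusted p = 9.59e-07, limma). It exceeded that in control cells by 1.94 (adjusted p = 0.000182), a difference that on fragments, with voom, was 0.82 (adjusted p = 0.671), and with the mutant the response was 0.34 (adjusted p = 0.238).

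After forskolin, Cxcl14 was 9.53-fold lower in mutant than in full-length NFIA-expressing cells (-3.06 ± 0.238, adjusted p = 9.00e-07, limma), and 14.5-fold lower without mutant replicate 1 (-3.42). At day 7 this difference was -1.36, under 3-fold. Adipocyte markers moved in the same direction between these groups, with all 8 tested called lower with the mutant in both comparisons. Their part in the level of Cxcl14 was not tested.

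Cx3cl1 (fractalkine, chromosome 8, 97295909 to 97306323), a membrane-bound ligand that adhesive cells shed, was expressed in all groups. At day 0 it was at 6.77, 7.45 and 7.29 FPKM in control cells, 22.0, 22.5 and 24.4 FPKM with full-length NFIA and 15.7, 15.1 and 15.4 FPKM with the mutant, with no overlap (1.55 and 1.01 over control cells, under 3-fold). Forskolin lowered it 5.11-fold with full-length NFIA, from 15.0, 13.1 and 13.4 to 2.86, 2.46 and 2.78 FPKM (-2.0002 ± 0.095, adjusted p = 9.91e-11, limma). The decrease was -1.32 with the mutant and -0.48 in control cells, whose samples went from 9.12 to 9.80 FPKM to 5.91 to 7.21 FPKM. The response was more negative than in control cells by -1.52 with full-length NFIA (adjusted p = 6.71e-07) and -0.84 with the mutant (adjusted p = 0.00140). With full-length NFIA, Cxcl14 was the 1 gene called higher and Cx3cl1 the 1 called lower of 18 (0.596% and 0.147% of all genes), and with the mutant Cxcl12 was the 1 called lower, beside 0.131% of all genes. None was called higher with the mutant by limma or voom (0.457% of all genes), with 9 at an unadjusted p-value of limma under 0.05 and 3 higher at an adjusted p-value under 0.05 alone (11.9%).

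Ackr4, a scavenging receptor for the proteins of Ccl19, Ccl21 and Ccl25, was the third expressed receptor. In control cells it went from 0.200, 0.174 and 0.164 FPKM at day 0 to 6.85, 7.58 and 7.36 FPKM at day 7, 40.5-fold (2.81 ± 0.109, adjusted p = 5.00e-13, limma), and to 11.7, 10.6 and 11.4 FPKM after forskolin. With full-length NFIA it was higher than in control cells at day 0, at 1.998, 2.18 and 2.85 FPKM, but at 0.743, 1.20 and 0.872 FPKM at day 7 and at 0.129, 0.217 and 0.125 FPKM after forskolin. The direction of its difference from control cells thus turned from 1.49 at day 0 to -2.10 at day 7 and -3.40 after forskolin (adjusted p = 5.87e-08, 1.12e-07 and 3.79e-10), where it was 71.7-fold lower in FPKM. With the mutant, the differences were 0.35, -1.72 and -2.48 in the same order. The gene has 2 entries in the annotation used here, so that no position is given, and its ligand gene Ccl25 had group means of 2.14, 1.79 and 1.44 FPKM at day 0 and 6.09, 3.39 and 3.03 FPKM at day 7, with no call.

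Cxcl13 (chromosome 5, 96385945 to 96390086), which attracts B cells, was called lower at day 0 with both constructs. Control cells were at 3.92, 3.10 and 3.86 FPKM, whereas with full-length NFIA no fragment was counted, which makes control cells at least 87.3-fold higher than a floor of 3 fragments over that group, and with the mutant 3 fragments were counted. In control cells it was at 1.36, 1.38 and 0.881 FPKM at day 7 and 1.998, 1.99 and 2.03 FPKM after forskolin. The mutant cells then stood at 1.60, 3.33 and 3.26 FPKM at day 7 and 3.96, 4.04 and 4.13 FPKM after forskolin, above 0.270, 0.418 and 0.527 and 0.352, 0.639 and 0.396 FPKM with full-length NFIA. The difference between mutant and full-length NFIA was 1.37 at day 7 and 1.79 ± 0.084 after forskolin (adjusted p = 1.48e-08, limma), the latter called.

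Cxcl16 (chromosome 11, 70267485 to 70273486), another membrane-bound ligand, differed by time more than by construct. It rose in control cells from 0.418, 0.446 and 0.275 to 3.62, 3.60 and 3.62 FPKM (1.74 ± 0.132, adjusted p = 2.34e-09, limma), and no construct comparison was called. With forskolin it went from 6.14, 5.18 and 4.14 to 2.16, 1.93 and 1.39 FPKM in mutant cells, where the response was more negative than in control cells by -1.04 (adjusted p = 0.0154). Ccl27a reached 1.83 FPKM with full-length NFIA at day 7 and at most 0.498 FPKM in any other group mean, but it has a near-identical copy in Ccl27b, so that its level is uncertain.

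Between day 0 and day 7, 5 of 19 genes were called in control cells, 4 higher (Ackr4, Ccl11, Ccl8 and Cxcl16) and 1 lower (Cxcl5), where 3.65% and 3.05% of all genes were called higher and lower. With full-length NFIA 3 were higher (Ackr3, Ccl6 and Cxcl14) and 5 lower (Ccl2, Ccl9, Cxcl1, Cxcl12 and Cxcl5; 5.38% and 4.71%). The calls of Cxcl12 and Ccl6 with full-length NFIA lay close to 3-fold, and were lost without either of day 0 or day 7 replicates 2 and 3 (-1.57 or -1.58) or with median-ratio scaling (-1.45) for Cxcl12, and without replicate 1 of either time point for Ccl6 (1.495 and 1.56). With the mutant 4 were higher (Ccl11, Ccl5, Cxcl13 and Cxcl14) and 4 lower (Ccl9, Cxcl1, Cxcl12 and Cxcl5; 3.91% and 2.93%). The median change over the tested genes was 0.001, -0.653 and 0.441 in control, full-length NFIA and mutant cells, against -0.056, -0.111 and -0.112 over all genes. The change with time differed from control cells for 17 of 19 genes with full-length NFIA, 5 more positive and 12 more negative (31.1% and 40.1% of all genes), and for 14 with the mutant, 6 and 8 (18.9% and 25.9%), at an adjusted p-value of limma under 0.05. These last comparisons were chosen after the data were seen.

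Few of the other genes of the chemokine system were called between constructs, in comparisons where 0.503% to 4.87% of all genes were called per direction. In the short lists 1 call is a larger share than that, as for Rarres2 in mutant against control cells at day 7 (1 of 7 beside 0.933%). The counts were not tested against the background and are a description. The list of chemokine system genes outside the naming rule includes chemokines under older symbols (Pf4 and Ppbp), decoys and related receptors. Of its 6 to 8 tested genes, 2 were called higher in mutant than in control cells after forskolin (Rarres2, chemerin, and Gpr35, a G protein-coupled receptor, 2 of 6 beside 0.866% of all genes). At most 1 was called in any other construct comparison (Rarres2 or Cmklr1, the chemerin receptor). Their median change in full-length NFIA-expressing against control cells was 1.11 at day 7 and 1.09 after forskolin, against -0.080 and -0.170 over all genes. Of 14 or 15 tested transducers, which carry or end the receptor signal, at most 1 was called (Rgs4 or Rgs2, which end G protein signals), and of 12 or 13 genes that cleave or present chemokines at most 1, namely Sdc4, a heparan sulfate carrier. Of 24 to 26 tested NF-kB pathway and inflammatory genes at most 1 was called per construct comparison. It was Tlr2, a receptor for bacterial lipoproteins, at day 0, which was at 47.6, 48.3 and 44.2 FPKM with full-length NFIA against 2.84 to 3.15 FPKM in control and 8.39 to 9.33 FPKM in mutant cells, and Vcam1, a leukocyte adhesion molecule, in some comparisons at day 7 and after forskolin. The cytokine gene Il6 was the 1 gene of that list called higher with forskolin in each of the 3 cell populations (5.27 to 6.56, 3.34 to 3.82 and 8.06 to 16.1 FPKM after forskolin, from at most 0.799 FPKM before), while Cxcl1 and Cxcl5 were called in control cells only.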

How the data were processed

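The authors aligned the reads of the 27 samples to mm9 with STAR, retained unique alignments, counted fragments per gene by strand and deposited FPKM, unscaled between samples. The annotation they used is not given in the sources used here. All values (100% in each sample, tolerance 0.01 fragments) were whole multiples of 1 fragment, from which fragments and depth were worked back. With R 4.3.3 and limma 3.58.1, log2(FPKM + 1) was fitted with 1 mean per group and trended variances to the 9 samples of a time point (12105, 12324 and 12121 genes), to the 18 day 7 samples with and without forskolin (12245 genes) and to the 18 samples of day 0 and day 7 (12408 genes), for genes with a mean of 0.5 FPKM or more. P-values are 2-sided and adjusted by Benjamini-Hochberg over all genes of a comparison. Genes were named if they were called in any comparison or had one of the highest group means, and unexpressed genes where they are the receptor or neighbor of a named gene. The members and the gene lists were chosen with earlier results of these data known. Of the lists, 13 of 16, 20 of 22, 15 of 15, 33 of 33 and 29 of 29 symbols were found for chemokine system genes outside the naming rule, transducers, processing, NF-kB and interferon. Replicate pairs differed by more than sampling noise (chi-square per gene 1.55 to 15.0 over 27 pairs). Positions were taken from an NCBIM37 annotation for 59 members, 3 of them by an older symbol. The alternatives were another pseudocount (0.1), other FPKM minimums (none and 5), median-ratio scaling, voom on fragments, no variance trend, fits of only the groups compared, a replicate block and leaving out each sample. Figures were drawn with matplotlib 3.10.9 in Python 3.11.15. Scripts were tested on simulated data. The other experiments of the study are not analysed here. Same-numbered mutant samples with and without forskolin deviated together (correlations 0.358, 0.156 and 0.102 over 12245 genes). Those of the other constructs had no common sign (0.108, -0.0539 and -0.122 in control cells, 0.151, 0.0196 and -0.167 with full-length NFIA). Some members with low values are counted but not named here.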

Additional observations from a re-analysis of the deposited data

Results flagged for a closer look

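In these results a construct's response differed from that of control cells by the test of the difference itself (limma, adjusted p-value under 0.05). Values are differences of log2 changes, construct minus control.

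For the response to forskolin with full-length NFIA, these were -0.70 for Ackr3, -1.31 for Ackr4, 0.76 for Ccl7, -1.52 for Cx3cl1, -1.16 for Cxcl1, 1.94 for Cxcl14 and -1.86 for Cxcl5. With the Δpro#3 mutant they were -0.75 for Ackr4, 0.96 for Ccl11, -0.84 for Cx3cl1, -0.92 for Cxcl1, -1.58 for Cxcl12, -1.04 for Cxcl16 and -1.59 for Cxcl5. Some of these were lost under other settings. The difference for Cxcl14 was 0.82 with voom (adjusted p = 0.671). The difference for Ccl7 had an adjusted p-value of 0.0925 with a pseudocount of 0.1, 0.0731 without a filter and 0.0748 with voom, that for Ccl11 had values of 0.0516 to 0.175 in 4 settings, and that for Ackr4 with the mutant 0.0856 with a pseudocount of 0.1. The threshold was also missed in 15 of the 18 fits without 1 sample for Ccl11 and in 7 of 18 for Ccl7.

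For the change from day 0 to day 7 with full-length NFIA, the ligands with a more negative change were Ccl11 (-2.17), Ccl2 (-1.57), Ccl25 (-0.52), Ccl7 (-2.41), Ccl8 (-2.15), Ccl9 (-1.71), Cx3cl1 (-1.07), Cxcl1 (-1.34), Cxcl12 (-0.54), Cxcl16 (-0.89) and Cxcl5 (-1.33). Those with a more positive change were Ccl6 (1.49), Cxcl13 (1.56) and Cxcl14 (2.79). Among the receptors the difference was 3.32 for Ackr3, -3.59 for Ackr4 and 0.44 for Cxcr4. The difference for Cxcl12 had an adjusted p-value of 0.0538 with a pseudocount of 0.1, 0.0675 without a filter and 0.0765 with median-ratio scaling, that for Ccl11 was -0.29 (0.388) with a pseudocount of 0.1 and 0.71 (0.389) with voom, and that for Ccl6 had an adjusted p-value of 0.258 with voom. Cxcl12 also missed the threshold in 8 of the 18 fits without 1 sample and Cxcr4 in 2 of 18, without day 0 replicate 1 of full-length NFIA (0.37) or day 7 replicate 3 of control cells (0.37).

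With the mutant, the difference in change with time was negative for Ackr4 (-2.08), Ccl25 (-0.46), Ccl7 (-1.07), Ccl9 (-1.05), Cx3cl1 (-0.71), Cxcl1 (-1.59), Cxcl12 (-0.88) and Cxcl5 (-1.90). It was positive for Ackr3 (1.42), Ccl5 (2.10), Ccl6 (0.84), Cxcl10 (0.98), Cxcl13 (2.88) and Cxcl14 (1.78). The difference for Ccl25 had an adjusted p-value of 0.0570 with a pseudocount of 0.1 and 0.127 with voom, and that for Ccl6 one of 0.127 with a pseudocount of 0.1, and with voom it was -0.68 (0.619). The comparisons of the change with time were chosen after the data were seen.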

How the results depend on the processing

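The direction held in all 2544 alternative values of the 116 called gene values but 2. On fragments with voom, the difference in change with time became 0.71 for Ccl11 with full-length NFIA (adjusted p = 0.389) and -0.68 for Ccl6 with the mutant (adjusted p = 0.619) and the cause was not tested. Counts of called genes moved by over 1.5 times only as follows. With a pseudocount of 0.1, the mutant against control cells had 9 instead of 5 at day 0 and 7 instead of 3 after forskolin, and the mutant against full-length NFIA 4 instead of 1 at day 0 and 8 instead of 3 at day 7. With voom these were 10, 7, 5 and 9. With a minimum mean of 5 FPKM, which tests fewer genes, full-length NFIA against control cells had 3 instead of 6 at day 0, 3 instead of 7 at day 7 and 5 instead of 9 after forskolin. In the same setting the mutant against control cells had 4 instead of 7 at day 7 and against full-length NFIA 2 instead of 4 after forskolin, control cells had 2 instead of 5 between day 0 and day 7, and the differences in change with time had 10 instead of 17 and 8 instead of 14. Leaving out 1 sample in turn moved 2 counts that far. The mutant against control cells after forskolin had 3 to 5, with 5 without control replicate 2 or mutant replicate 1, and the forskolin response of the mutant had 1 to 2, with 2 without mutant replicate 1 after forskolin. At other thresholds of expression, 22 genes reached 0.5 FPKM and 16 reached 5 FPKM. Median-ratio scaling moved the median of all genes by 0.173 for full-length NFIA against control cells after forskolin, -0.125 for the mutant against full-length NFIA there, 0.125 for the forskolin response with full-length NFIA, and 0.135 and 0.120 for the change with time with full-length NFIA and the mutant. Same-numbered replicates of different constructs did not deviate together (mean correlation 0.0139, -0.0314 and -0.00195 at the 3 time points), nor did those of 1 construct between day 0 and day 7. With the replicate block, counts of calls were the same as without it, except 8 instead of 7 for the difference in forskolin response between mutant and control cells. With a replicate block within each construct in the forskolin comparisons, chosen after the data were seen, no call was lost, and the differences in response had 10 instead of 7 with full-length NFIA and 9 instead of 7 with the mutant.

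Depth limits the low genes. Members at 0 fragments were not detectable at these depths, which does not make them absent.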
